A study of Mus musculus with 6 samples.

Results

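The 32 genes described here encode the enzymes of glycolysis, the proteins that set its flux and the response of a cell to low oxygen. They comprised 17 glycolytic enzymes, 5 regulators or transporters of the pathway, 2 oxygen sensors, 5 targets of hypoxia and 3 HIF alpha subunits, and were taken by gene symbol, with no threshold on their values, from the 32285 genes of the deposited matrices. All 32 symbols were found, in 33 rows, because Aldoa had a second, almost silent row. The study sequenced single tdTomato+ cells sorted from mouse back skin, in 3 groups of 2 mice, each group with 2 libraries. Every mouse carried a tdTomato reporter and Cdh5-CreERT2, a tamoxifen-inducible Cre under the VE-cadherin (Cdh5) promoter. The sort was thus for cells of the VE-cadherin lineage, but the study describes the immune cells and fibroblasts in it as Cdh5-negative contaminants. WT mice were tdTomato;Cdh5-CreERT2;Krt14-H2BGFP on a C57BL/6;CD1 strain and were taken in telogen, the resting phase of the hair cycle, at postnatal day (PD) 20, or in anagen, its growth phase, at PD32. Alk1KO mice were Alk1 fl/fl;tdTomato;Cdh5-CreERT2 on C57BL/6, taken in telogen at PD25. Tamoxifen, 200 μg/g, was given to all groups at PD17, which was 3 days before sampling in WT telogen, 15 in WT anagen and 8 in Alk1KO. The same Cre drives the reporter and the deletion of Alk1 (Acvrl1, a TGF-β family receptor of the endothelium), cells outside this lineage keep the gene, and the study describes Alk1KO mice as dying soon after the age sampled from vascular defects. A genotype tag in the labels reads wild type for the Alk1KO libraries, and their titles and descriptions were followed here.

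Glycolysis splits glucose into pyruvate, and lactate dehydrogenase turns pyruvate into lactate when the mitochondria do not take it up. Endothelial cells are known to draw most of their ATP from this route even where oxygen is plentiful. When oxygen falls, prolyl hydroxylases such as Egln1 and Egln3 stop marking the HIF alpha subunits for destruction, and HIF1α or HIF2α (Epas1), with its partner Arnt, binds DNA at a short core motif and raises transcription of many glycolytic and hypoxia-response genes. HIF abundance is set mainly at the protein level, which these data do not measure.

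The promoters of 30 of the 32 genes were in the RefSeq table for GRCm38.p6, and Ndufa4l2 and Epas1 were not. In the 250 bases before the start, 27 of the 30 genes (90%) held the HIF core motif, against 41.5% of 27025 symbols there. The motif was read as ACGTG or GCGTG on either strand with overlapping matches counted, in any promoter window of the gene. By window the shares were 80% of 45 and 38.6% of 32851. The genes were chosen for glycolysis and the hypoxia response, so a high share was in part given in advance. Below are the promoters of the 4 genes called in the most populations in the Alk1KO comparison, with the motif in capitals (CACGT and CACGC are its reverse strand, and in CACGTG both strands overlap). Bnip3 held 5 matches, 35 to 117 bases before its start, and Ddit4 held 2. A match in these letters is a description of the sequence only.
Bnip3 (chr7:138909520-138909756, minus strand): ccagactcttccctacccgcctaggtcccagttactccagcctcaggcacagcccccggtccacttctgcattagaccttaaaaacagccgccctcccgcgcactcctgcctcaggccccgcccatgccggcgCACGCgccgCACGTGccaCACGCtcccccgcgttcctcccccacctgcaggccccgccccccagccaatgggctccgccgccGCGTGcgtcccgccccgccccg
Ddit4 (chr10:59951835-59952020, minus strand): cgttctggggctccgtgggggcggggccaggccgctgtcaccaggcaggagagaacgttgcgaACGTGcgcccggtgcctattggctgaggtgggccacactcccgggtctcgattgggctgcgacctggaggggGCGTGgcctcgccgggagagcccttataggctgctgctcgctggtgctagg
Pgam1 (chr19:41911621-41911870, plus strand): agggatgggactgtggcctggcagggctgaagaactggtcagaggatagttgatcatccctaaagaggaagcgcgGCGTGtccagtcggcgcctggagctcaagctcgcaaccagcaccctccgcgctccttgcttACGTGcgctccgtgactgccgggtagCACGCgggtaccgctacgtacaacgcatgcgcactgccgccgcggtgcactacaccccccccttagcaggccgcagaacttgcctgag
Pgk1 (chrX:106186850-106187099, plus strand): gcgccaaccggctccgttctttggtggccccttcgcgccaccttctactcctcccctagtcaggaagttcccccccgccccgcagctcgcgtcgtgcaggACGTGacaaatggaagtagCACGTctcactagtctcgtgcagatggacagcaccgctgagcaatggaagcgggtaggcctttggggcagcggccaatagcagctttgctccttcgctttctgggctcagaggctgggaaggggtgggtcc
Bnip3 encodes a mitophagy receptor of the outer mitochondrial membrane, and Ddit4 an inhibitor of mTORC1 signaling induced by hypoxia and glucocorticoids. Pgam1 and Pgk1 encode phosphoglycerate mutase and phosphoglycerate kinase, enzymes of the later steps of glycolysis. Bnip3 lies on the minus strand of chromosome 7 and Ddit4 on that of chromosome 10, while Pgam1 is on the plus strand of chromosome 19 and Pgk1 on that of X.

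Libraries held 29851591 to 43317677 unique molecular identifiers (UMIs) in WT and 10615358 and 11239445 in Alk1KO, and 20941 cells were kept in all. Levels are given as counts per 1000000 UMIs (CPM) of all cells of a population in a library, which for 3′ UMI counts do not grow with transcript length. Cells were clustered without the 32 genes, and 10 populations were compared: the endothelial cell (EC) subpopulations Artery, Vein, Cap-Kdr, Cap-Rgcc (both capillary), Lymph-Col and Lymph-Cap (collecting and capillary lymphatics), the Cdh5+/Krt19+ perineurial cells that sheathe nerves, and pericyte-like, fibroblast-like and myeloid-like cells. A gene was called where edgeR's quasi-likelihood test gave an adjusted p under 0.05 over all genes tested and a fold over 1.3, and values after ± are SD over libraries for levels and SE for log2 fold changes. With 2 mice per group, p-values measure the spread between these mice. Reads of Eno1 and its near-identical copy Eno1b, and of Gapdh, Pgk1, Ldha, Tpi1 and other enzymes with processed pseudogenes, may be shared between copies, so their levels are uncertain to that extent.

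Transcripts of the 17 enzymes together made up the largest share of RNA in pericyte-like and perineurial cells and the smallest in fibroblast-like cells of WT skin. Their sum over the 4 WT libraries was 2732 ± 395 CPM in pericyte-like, 2683 ± 182 in perineurial, 2601 ± 305 in Cap-Rgcc, 2599 ± 287 in Vein, 2286 ± 249 in Artery, 2146 ± 113 in myeloid-like, 2049 ± 184 in Cap-Kdr, 1855 ± 272 in Lymph-Col, 1736 ± 143 in Lymph-Cap and 1495 ± 103 in fibroblast-like cells. The first 4 of these lay within an SD of each other. Both lymphatic subpopulations lay below every blood EC subpopulation in mean.

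**Figure D1:**
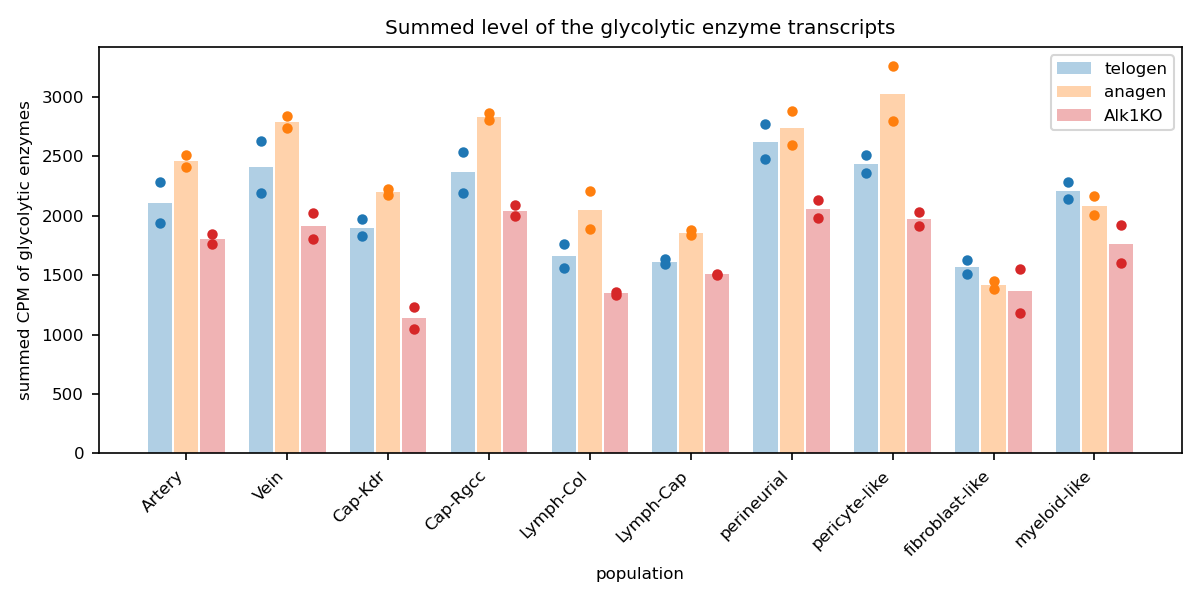
Summed level of the 17 glycolytic enzyme transcripts (y axis, CPM, from 0) in 10 populations (x axis), with bars for the mean of each group of 2 libraries and points for the libraries. In Cap-Kdr the Alk1KO libraries stood at 1043 and 1228 CPM, below the telogen libraries at 1973 and 1827 CPM.

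Among the enzymes, Gapdh, the dehydrogenase in the middle of the pathway, was expressed at 394 ± 131 CPM in Vein, 383 ± 154 in Cap-Rgcc, 342 ± 140.3 in pericyte-like, 294 ± 117 in Cap-Kdr, 289 ± 126 in Artery, 266 ± 75.4 in myeloid-like, 261 ± 69.1 in perineurial, 233 ± 82.6 in Lymph-Cap, 188 ± 86.0 in Lymph-Col and 148 ± 21.6 in fibroblast-like. Pkm, the pyruvate kinase that makes pyruvate, stood at 421 ± 41.3 CPM in Vein, 403 ± 55.9 in Cap-Rgcc, 337 ± 46.3 in myeloid-like, 329 ± 22.9 in perineurial, 273 ± 59.0 in pericyte-like, 265 ± 34.2 in Cap-Kdr, 237 ± 39.2 in Artery, 150.2 ± 36.0 in Lymph-Cap, 146 ± 31.4 in Lymph-Col and 136 ± 18.8 in fibroblast-like. Vein and Cap-Rgcc thus held the most of both, and Lymph-Col and fibroblast-like cells the least of both. Ldha, the lactate dehydrogenase subunit that favors lactate, measured 465 ± 59.4 CPM in Vein, 437 ± 30.6 in Cap-Rgcc, 413 ± 41.1 in Artery, 408 ± 25.9 in pericyte-like, 342 ± 30.6 in Cap-Kdr, 283 ± 27.8 in myeloid-like, 215 ± 5.81 in perineurial, 193 ± 10.8 in Lymph-Cap, 189 ± 35.1 in fibroblast-like and 148 ± 15.2 in Lymph-Col. Its sister subunit Ldhb, which favors pyruvate, had another order, at 124 ± 32.5 CPM in perineurial, 107 ± 66.1 in pericyte-like, 15.6 ± 8.69 in fibroblast-like, 10.6 ± 2.75 in Vein, 9.38 ± 4.91 in Artery, 6.85 ± 1.58 in Cap-Rgcc, 6.49 ± 1.71 in Cap-Kdr, 2.47 ± 0.931 in myeloid-like, 0.561 ± 1.12 in Lymph-Cap and 0.13 ± 0.26 in Lymph-Col, and was close to 0 in both lymphatic subpopulations. Pgk1 was highest in Artery, at 213 ± 22.5 CPM in Artery, 181 ± 23.8 in Cap-Rgcc, 164 ± 14.9 in Lymph-Col, 147 ± 20.2 in Vein, 142 ± 19.3 in pericyte-like, 142 ± 35.6 in myeloid-like, 132 ± 11.8 in Lymph-Cap, 109 ± 8.74 in Cap-Kdr, 107 ± 15.2 in perineurial and 83.5 ± 21.8 in fibroblast-like.

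Aldoa, the main aldolase, and Tpi1, triose phosphate isomerase, were most abundant in perineurial cells, at 664 ± 72.0 and 411 ± 27.8 CPM. Hk1, the hexokinase of most tissues, was spread over all EC subpopulations at 48.6 (Lymph-Cap) to 95.1 CPM (Cap-Rgcc). Hk2, the inducible hexokinase, stood at 134 ± 14.9 CPM in fibroblast-like cells, 51.7 ± 13.8 in myeloid-like cells and 0.351 in Vein. So the hexokinase genes differed in where they were expressed. Of the phosphofructokinases, which catalyse the committed step, Pfkp ranged from 37.9 to 179.7 CPM, Pfkl from 8.98 to 67.0 and Pfkm from 1.53 to 13.0. Gpi1, glucose phosphate isomerase, ranged from 95.6 to 188 CPM and Eno1, the main enolase, from 53.1 to 121 CPM. Pgam1 had the narrowest range of the 32 genes, 1.64-fold from its lowest to its highest population. Aldoc and Eno2, aldolase and enolase genes best known from neurons, reached only 8.98 CPM in myeloid-like and 15.2 CPM in fibroblast-like cells.

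**Figure D2:**
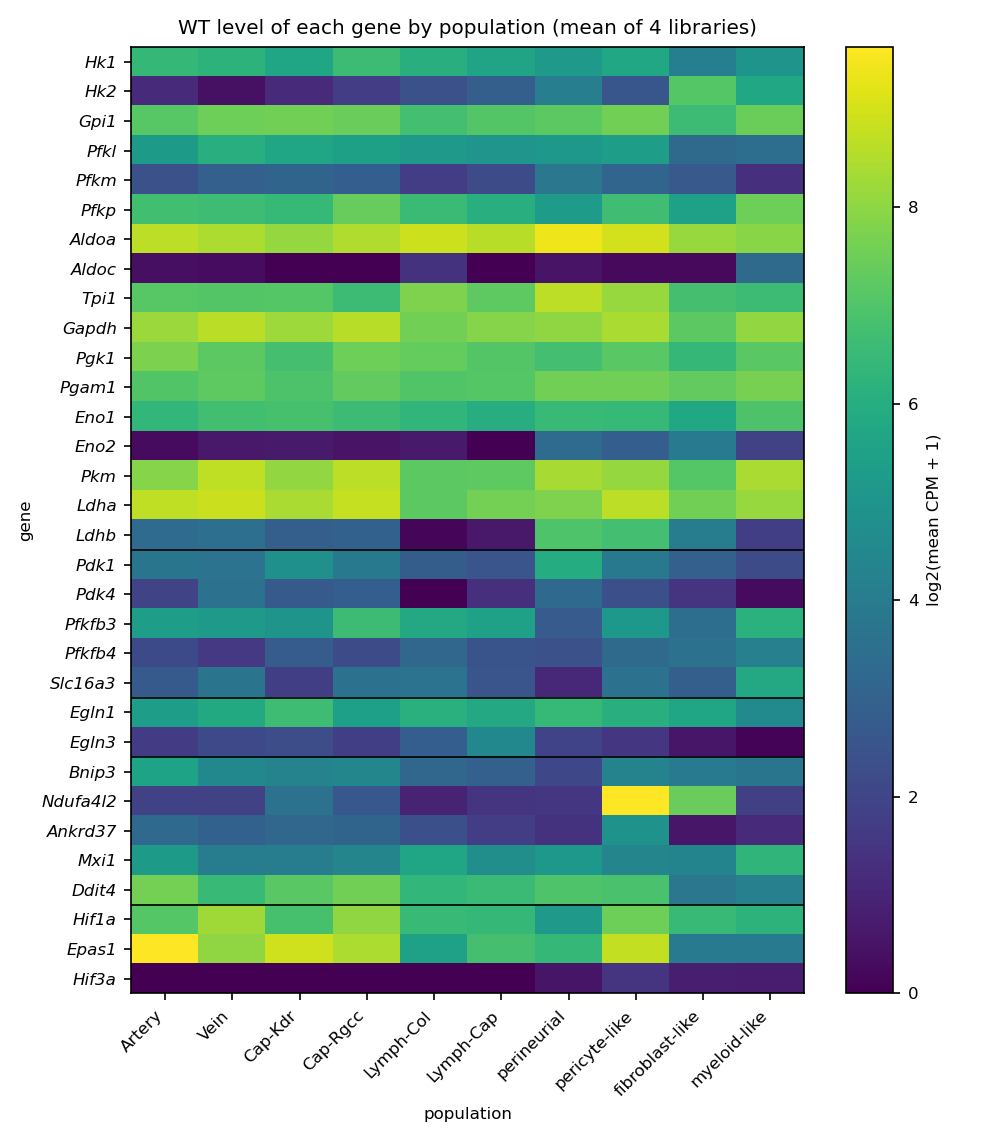
Mean level of each of the 32 genes (y axis, grouped by role) in 10 populations (x axis) over the 4 WT libraries, as log2(mean CPM + 1). Ndufa4l2 stands out in pericyte-like cells, where it reached 779 CPM, and Epas1 in Artery.

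The regulators and the lactate exporter peaked in different populations. Pdk1 and Pdk4 encode kinases that close pyruvate dehydrogenase, the gate from glycolysis to the mitochondria. Pdk1 was highest in perineurial cells, at 61.3 ± 1.32 CPM, and Pdk4 measured 11.4 ± 4.74 CPM in Vein, 8.75 ± 1.63 in perineurial, 6.40 ± 2.82 in Cap-Rgcc, 5.54 ± 2.30 in Cap-Kdr, 4.15 ± 2.73 in pericyte-like, 2.96 ± 2.06 in Artery, 1.74 ± 1.09 in fibroblast-like, 1.44 ± 2.88 in Lymph-Cap, 0.205 ± 0.293 in myeloid-like and 0 in all 4 libraries of Lymph-Col. Pfkfb3 makes fructose 2,6-bisphosphate, the activator of phosphofructokinase, and was highest in Cap-Rgcc (95.4 ± 21.3 CPM) and lowest in perineurial cells (5.87 ± 1.57 CPM). Its relative Pfkfb4 lay between 2.02 and 17.2 CPM. Slc16a3 (MCT4), which exports lactate, measured 54.8 ± 5.36 CPM in myeloid-like, 11.9 ± 3.53 in Vein, 11.7 ± 2.91 in Lymph-Col, 11.3 ± 5.56 in pericyte-like, 11.3 ± 5.56 in Cap-Rgcc, 6.50 ± 1.90 in fibroblast-like, 5.63 ± 1.83 in Artery, 4.86 ± 3.16 in Lymph-Cap, 2.43 ± 1.35 in Cap-Kdr and 1.09 ± 0.488 in perineurial, so that its highest level was outside the endothelium.

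Epas1 and Hif1a had different orders among blood ECs. Over the 10 populations, mean levels spanned 52.1-fold for Epas1 and 8.49-fold for Hif1a. Epas1 measured 790.2 ± 89.8 CPM in Artery, 484 ± 108 in Cap-Kdr, 425 ± 59.8 in pericyte-like, 347 ± 60.6 in Cap-Rgcc, 258 ± 18.3 in Vein, 110.1 ± 9.78 in Lymph-Cap, 84.7 ± 5.90 in perineurial, 44.1 ± 4.96 in Lymph-Col, 15.2 ± 3.35 in fibroblast-like and 15.2 ± 11.8 in myeloid-like, and Hif1a 307 ± 53.1 CPM in Vein, 258 ± 28.4 in Cap-Rgcc, 178 ± 28.0 in pericyte-like, 135 ± 18.4 in Artery, 111 ± 15.6 in Cap-Kdr, 90.9 ± 16.4 in fibroblast-like, 88.0 ± 6.86 in Lymph-Col, 84.8 ± 5.57 in Lymph-Cap, 73.4 ± 12.4 in myeloid-like and 36.1 ± 3.21 in perineurial. Blood ECs and pericyte-like cells thus headed the order for Epas1, while lymphatic, perineurial, fibroblast-like and myeloid-like cells were low in it. Hif3a, whose product can restrain HIF activity, had 0 UMIs in the blood ECs of all 4 WT libraries. The sensor Egln1 ranged from 23.6 to 98.5 CPM, and its relative Egln3, itself a HIF target, measured 21.3 ± 1.51 CPM in Lymph-Cap, 6.41 ± 2.47 in Lymph-Col, 3.82 ± 1.92 in Cap-Kdr, 3.37 ± 1.70 in Vein, 2.87 ± 1.27 in perineurial, 2.49 ± 1.76 in Cap-Rgcc, 2.15 ± 0.981 in Artery, 1.88 ± 1.14 in pericyte-like, 0.481 ± 0.558 in fibroblast-like and 0.0716 ± 0.0935 in myeloid-like.

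Hypoxia targets did not share one order. Ndufa4l2, a mitochondrial protein that lowers complex I activity and a pericyte marker, was listed at 779 ± 177 CPM in pericyte-like, 169.7 ± 88.4 in fibroblast-like, 11.4 ± 5.75 in Cap-Kdr, 5.12 ± 4.73 in Cap-Rgcc, 2.78 ± 1.71 in Vein, 2.68 ± 1.62 in Artery, 2.51 ± 2.93 in myeloid-like, 1.88 ± 2.41 in perineurial, 1.82 ± 1.44 in Lymph-Cap and 0.875 ± 0.919 in Lymph-Col. Bnip3 was highest in Artery, at 46.7 ± 9.50 CPM in Artery, 21.6 ± 2.93 in Vein, 20.5 ± 9.10 in Cap-Rgcc, 18.7 ± 3.69 in Cap-Kdr, 18.7 ± 3.61 in pericyte-like, 15.1 ± 4.79 in fibroblast-like, 12.5 ± 1.80 in myeloid-like, 8.14 ± 4.06 in Lymph-Col, 6.76 ± 0.358 in Lymph-Cap and 3.23 ± 1.55 in perineurial. Ddit4 measured 196 ± 2.29 CPM in Artery, 190.5 ± 58.2 in Cap-Rgcc, 142 ± 53.9 in Cap-Kdr, 125 ± 84.7 in perineurial, 117 ± 27.8 in pericyte-like, 93.4 ± 43.9 in Lymph-Cap, 92.3 ± 41.9 in Vein, 83.0 ± 13.6 in Lymph-Col, 17.1 ± 3.22 in myeloid-like and 13.2 ± 4.67 in fibroblast-like. Each of these 3 was lowest in another population, namely Lymph-Col, perineurial and fibroblast-like cells in turn. Mxi1, an antagonist of Myc, was highest in myeloid-like cells (77.6 ± 17.2 CPM), and Ankrd37 in pericyte-like cells (29.9 ± 17.0 CPM).

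Populations of the same 4 WT mice were compared with the library as a block. In perineurial cells against blood ECs (Artery, Vein and both capillary subpopulations together), both HIF subunits and several endothelial regulators were lower, while another set of isozymes was higher. Of 30 genes tested, 8 were higher and 14 lower (73.3% called, against 65.2% of all genes tested), and their median log2 fold change was -0.31 against 0.02 over all genes tested. The log2 fold change of Epas1 was -2.66 ± 0.11 (adjusted p = 9.85e-09) by edgeR, with 84.7 CPM in perineurial cells. Lower besides were Pfkfb3 (-3.19 ± 0.14), Hif1a (-2.65 ± 0.12), Bnip3 (-3.38 ± 0.18), Pfkp (-1.76 ± 0.10), Hk1 (-1.3 ± 0.09) and Ldha (-1.11 ± 0.10), with adjusted p from edgeR between 1.18e-08 and 2.27e-06. Higher in perineurial cells were Ldhb (3.61 ± 0.21), Tpi1 (1.55 ± 0.09), Pdk1 (1.88 ± 0.11), Hk2 (3.82 ± 0.29) and Eno2 (4.72 ± 0.37), with edgeR adjusted p between 8.51e-08 and 9.64e-07. The enzymes were split evenly, 6 higher and 6 lower of 16 tested. Slc16a3 (-3.07), Pgk1 (-0.81), Gapdh (-0.51), Ndufa4l2 (-1.87) and Ddit4 (-0.64) were also lower, while Pkm (-0.17 ± 0.11), Pdk4 (0.37 ± 0.27) and Egln3 (-0.11 ± 0.37) were not called. The Ddit4 call was lost without 3 of the 4 libraries in turn: without telogen replicate 1 (adjusted p = 0.0726), anagen replicate 1 (0.0503) and anagen replicate 2 (0.0846), and Ndufa4l2 was not tested without anagen replicate 1. Of the other pathway genes, those of the tricarboxylic acid (TCA) cycle, which burns pyruvate in mitochondria, were 12 higher and 1 lower of 19 tested (63.2% higher, against 33.1% of all genes), with Idh2 (1.46) and Mdh1 (1.31) first. Other glycolysis enzymes and transporters were 7 higher and 2 lower of 14 (50% higher), led by the glucose transporter Slc2a1 (3.71) and the lactate transporter Slc16a1 (3.57).

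Lymphatic ECs held less of most of these transcripts than blood ECs. Of 28 genes tested, 4 were higher and 18 lower (78.6% called, against 47.6% of all genes), at a median log2 fold change of -0.63 against -0.00 over all genes tested. Among the 14 enzymes tested, 10 were lower and only Tpi1 was higher. Epas1 (-2.97 ± 0.11), Ldha (-1.45 ± 0.09), Pkm (-1.27 ± 0.08), Hif1a (-1.3 ± 0.10), Bnip3 (-2.03 ± 0.17), Ldhb (-5.04 ± 0.48), Gapdh (-0.85 ± 0.08), Ddit4 (-0.96 ± 0.10), Pdk1 (-1.50 ± 0.19), Gpi1 (-0.64 ± 0.09) and Pdk4 (-3.98 ± 0.58) were lower, with edgeR adjusted p between 6.5e-10 and 9.56e-05. The higher genes were Egln3 (1.90 ± 0.21 (adjusted p = 9.41e-06)), Mxi1 (0.75), Tpi1 (0.52) and Pfkfb4 (0.96). The sensor Egln3 was thus higher in the ECs where Epas1 and Hif1a were lower in transcript. Ndufa4l2 was lower (-2.17) in all 4 libraries together, but was not tested without telogen replicate 1 or anagen replicate 1, and Hk1 (-0.46) was not called without anagen replicate 2. Slc16a3 (0.23 ± 0.25) and Pgk1 (-0.21 ± 0.08) were not called. Other hypoxia genes went the other way in part, 9 higher and 3 lower of 24 (37.5% higher, against 23.9% of all genes), with the vasodilator Adm at 4.38 and Vegfa at 1.63, and Slc2a1 was lower (-1.77).

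Within the blood vessels, arterial ECs differed from capillary ECs in 11 of 27 genes (40.7%, against 30.7% of all genes), 4 higher and 7 lower, with a median of -0.28 against -0.02 over all genes tested. Epas1 (0.98 ± 0.09 (adjusted p = 1.79e-06)) and Bnip3 (1.24 ± 0.13 (adjusted p = 4.26e-06)) were higher in arteries by edgeR, as were Pgk1 (0.49 ± 0.09) and Mxi1 (0.79 ± 0.19). Hif1a (-0.53 ± 0.09), Egln1 (-0.74 ± 0.13), Pkm (-0.55 ± 0.10), Pfkfb3 (-0.69 ± 0.13), Eno1 (-0.40 ± 0.09), Pdk1 (-0.51 ± 0.16) and Pfkm (-0.66 ± 0.24) were lower. Epas1 and Hif1a thus differed between arterial ECs and the pooled capillary class in opposite directions. By mean level, Epas1 was higher in Artery than in both capillary subpopulations. Hif1a in Artery lay below Cap-Rgcc but above Cap-Kdr, so its direction held against Cap-Rgcc only. The make-up of the pool varied, with Cap-Kdr giving 29.2% and 8.90% of blood EC UMIs in the anagen libraries, and its part was not tested. Pfkm was not called without either telogen library and not tested without either anagen library, Pdk1 was not called without telogen replicate 1, telogen replicate 2 or anagen replicate 1, and Eno1 was not called without anagen replicate 2. Ldha (0.05 ± 0.08), Ddit4 (0.28 ± 0.13), Gapdh (-0.28 ± 0.09), Pdk4 (-0.81 ± 0.32), Ndufa4l2 (-0.96 ± 0.38) and Slc16a3 (-0.27 ± 0.25) were not called, Gapdh because its fold was under 1.3.

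Pericyte-like cells were set apart by Ndufa4l2 (7.43 ± 0.37 (adjusted p = 3.55e-08) against blood ECs by edgeR), as known for this cell type. In all, 8 of 28 genes were higher and 2 lower (35.7%, against 32.3% of all genes), with a median of -0.07 against -0.01 over all genes tested. Ldhb (3.63 ± 0.25), Tpi1 (1.16 ± 0.11), Eno2 (3.83 ± 0.71), Ankrd37 (1.76 ± 0.34), Aldoa (0.46 ± 0.12), Pfkfb4 (1.32 ± 0.37) and Pgam1 (0.41 ± 0.12) were higher, and Hk1 (-0.50 ± 0.12) and Ddit4 (-0.40 ± 0.14) lower. The calls of Aldoa, Pfkfb4, Ddit4 and Pgam1 rested on single libraries, and 6 of the 10 calls remained without telogen replicate 2, while the stricter cell filter gave 5 calls. Epas1 (-0.18 ± 0.11), Hif1a (-0.19 ± 0.11), Ldha (-0.03 ± 0.11), Gapdh (-0.02 ± 0.12), Pgk1 (-0.23 ± 0.12), Pkm (-0.30 ± 0.12), Bnip3 (-0.49 ± 0.20), Pdk4 (-0.91 ± 0.48) and Slc16a3 (0.56 ± 0.27) were not called. TCA cycle enzymes were 14 higher and 0 lower of 19 tested (73.7% higher, against 16.7% of all genes).

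Fibroblast-like cells were compared with perineurial cells, the other mesenchymal population. Of 28 genes, 9 were higher and 12 lower (75%, against 52.3% of all genes), with a median of -0.36 against -0.03 over all genes tested. Hk2 (3.47 ± 0.13 (adjusted p = 6.01e-10)) and Ndufa4l2 (7.07 ± 0.38 (adjusted p = 1.39e-08)) were higher by edgeR, as were Hif1a (1.77 ± 0.13), Bnip3 (2.76 ± 0.32) and Slc16a3 (2.95 ± 0.43). Pdk1 (-2.83 ± 0.19), Epas1 (-2.08 ± 0.15), Tpi1 (-1.46 ± 0.11), Ldhb (-2.72 ± 0.26), Pkm (-0.84 ± 0.10), Ddit4 (-2.90 ± 0.35), Aldoa (-0.79 ± 0.10) and Pdk4 (-1.69 ± 0.42) were lower. Slc16a3 was not tested without telogen replicate 2. Gapdh (-0.36 ± 0.10), Ldha (0.25 ± 0.12) and Pgk1 (0.07 ± 0.11) were not called. Myeloid-like cells differed from blood ECs in 24 of 30 genes (80%, against 63.5% of all genes), 11 higher and 13 lower, with a median of -0.11 against -0.03 over all genes tested. Slc16a3 (3.27 ± 0.19 (adjusted p = 4.46e-06)), Hk2 (6.23 ± 0.41), Mxi1 (2.17 ± 0.15), Aldoc (6.49 ± 0.48), Pfkfb4 (2.79 ± 0.24) and Pkm (0.47 ± 0.14) were higher there by edgeR. Ddit4 (-2.82 ± 0.17), Pfkl (-1.88 ± 0.15), Epas1 (-5.05 ± 0.54), Pdk4 (-4.94 ± 0.57), Egln3 (-4.02 ± 0.52), Ankrd37 (-2.63 ± 0.35), Pdk1 (-1.55 ± 0.22), Hif1a (-1.0 ± 0.16) and Bnip3 (-0.66 ± 0.18) were lower. The call of Pkm was lost without either telogen library. Gapdh (0.12 ± 0.13), Ldha (-0.12 ± 0.12), Pgk1 (0.19 ± 0.15) and Ndufa4l2 (-0.55 ± 0.44) were not called. Ldha and Pgk1 were called in neither of these comparisons.

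The hair cycle comparison asked whether these genes changed between resting and growing skin in WT mice. In the 6 EC subpopulations, 0 of 142 tests were called by edgeR, 34 had an unadjusted p under 0.05, and DESeq2 called 5. Of all genes tested, the share called was 0.0116% in Cap-Kdr, 0.269% in Vein, 0.479% in Lymph-Cap, 0.473% in Artery, 1.41% in Lymph-Col and 0.412% in Cap-Rgcc. The genes at an unadjusted p under 0.05, with the same share over all genes, numbered 4 of 23 in Cap-Kdr (9.05% of all genes), 3 of 25 in Vein (12.9%), 4 of 19 in Lymph-Cap (14.2%), 7 of 25 in Artery (14.9%), 6 of 24 in Lymph-Col (19.5%) and 10 of 26 in Cap-Rgcc (18.1%). Leaving out 1 library gave 1 to 9 calls over the EC subpopulations. Gapdh came nearest to a call. In Lymph-Col it was at 143 and 121 CPM in the telogen libraries and 312 and 177 CPM in the anagen libraries, a log2 fold change of 1.06 ± 0.27 (adjusted p = 0.0847) by edgeR. In Artery it was at 239.6 and 191 CPM in the telogen libraries and 473 and 252 CPM in the anagen libraries, and 0.85 ± 0.27 (adjusted p = 0.187) by the same test. Anagen replicate 1 was the highest of the 6 libraries for Gapdh in 9 of the 10 populations and anagen replicate 2 lay much closer to the telogen libraries in both of these populations. Over the 6 EC subpopulations, log2 fold changes spanned 0.68 to 1.06 for Gapdh, 0.00 to 0.36 for Ldha, 0.14 to 0.53 for Pkm, -0.16 to 0.20 for Pgk1, 0.04 to 0.49 for Hif1a, -0.52 to 0.07 for Epas1, -0.02 to 1.11 for Bnip3 and -0.94 to 0.12 for Ddit4, none of them called. Where they could be tested, Pdk4 spanned -0.71 to 0.08, Slc16a3 -0.46 to 0.67, Ndufa4l2 -2.28 to -0.70 and Egln3 was at 0.05 in both lymphatic subpopulations. Medians of the genes tested ran from 0.02 (Cap-Kdr) to 0.30 (Cap-Rgcc), against -0.01 to 0.02 over all genes. Over the enzymes alone they ran from 0.08 (Cap-Kdr) to 0.39 (Lymph-Col). The summed enzyme level, which includes Gapdh, was higher in both anagen than in both telogen libraries in every EC subpopulation. In Artery it was 2281 and 1940 CPM in telogen and 2510 and 2411 CPM in anagen. The sum itself was not tested. None of the EC stage tests of the lists of other glycolysis genes (53 tests), TCA cycle enzymes (114) and fasting- and glucocorticoid-responsive genes (93) was called, while 1 of 128 other hypoxia tests (Mif, 0.84 in Lymph-Col) and 2 of 96 stress tests were higher.

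Outside the endothelium 1 gene was called. The counts called by edgeR were 0 of 27 in perineurial cells (4 at an unadjusted p under 0.05, 0 by DESeq2, and 0.933% of all genes called), 0 of 25 in pericyte-like cells (4, 1 and 0.0463%) and 0 of 27 in fibroblast-like cells (1, 0 and 0.344%). Ddit4 in perineurial cells was at 93.3 and 252 CPM in the telogen libraries and 79.2 and 76.4 CPM in the anagen libraries, a log2 fold change of -1.08 ± 0.37 (adjusted p = 0.222) by edgeR. Both anagen libraries lay below both telogen libraries there. In myeloid-like cells 1 of 28 genes was called (0.506% of all genes): Epas1 was higher in anagen by 2.27 ± 0.27 (adjusted p = 0.0414) by edgeR, at 5.76 and 5.55 CPM in the telogen libraries and 19.6 and 29.8 CPM in the anagen libraries. The summed level of 8 endothelial markers in these myeloid-like cells moved with it, from 62.5 to 67.9 CPM in telogen to 205 to 408 CPM in anagen, with no marker at 0, and its part in the result was not tested. The call was lost with the stricter cell filter, with likely doublets removed and with all 6 libraries in one fit, and without telogen replicate 2 (adjusted p = 0.0581), and without anagen replicate 2 there were 4 calls. Over these 4 populations log2 fold changes spanned 0.34 to 0.95 for Gapdh, -0.34 to 0.08 for Ldha, -0.20 to 0.27 for Pkm, -0.41 to -0.26 for Pgk1, -0.11 to 0.44 for Hif1a, -0.27 to 1.13 for Bnip3, -2.91 to 0.42 for Ndufa4l2 and -0.91 to 0.06 for Slc16a3, and in perineurial cells Pdk4 was at 0.53 ± 0.29 and Egln3 at 1.2 ± 0.48, none of them called. A test of whether the stage effect differed between populations called 0 of 30 genes for perineurial cells against blood ECs (6 at an unadjusted p under 0.05, 0 by DESeq2, 0.582% of all genes) and 0 of 29 for lymphatic against blood ECs (0, 0 and 0.0166%).

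**Figure D3:**
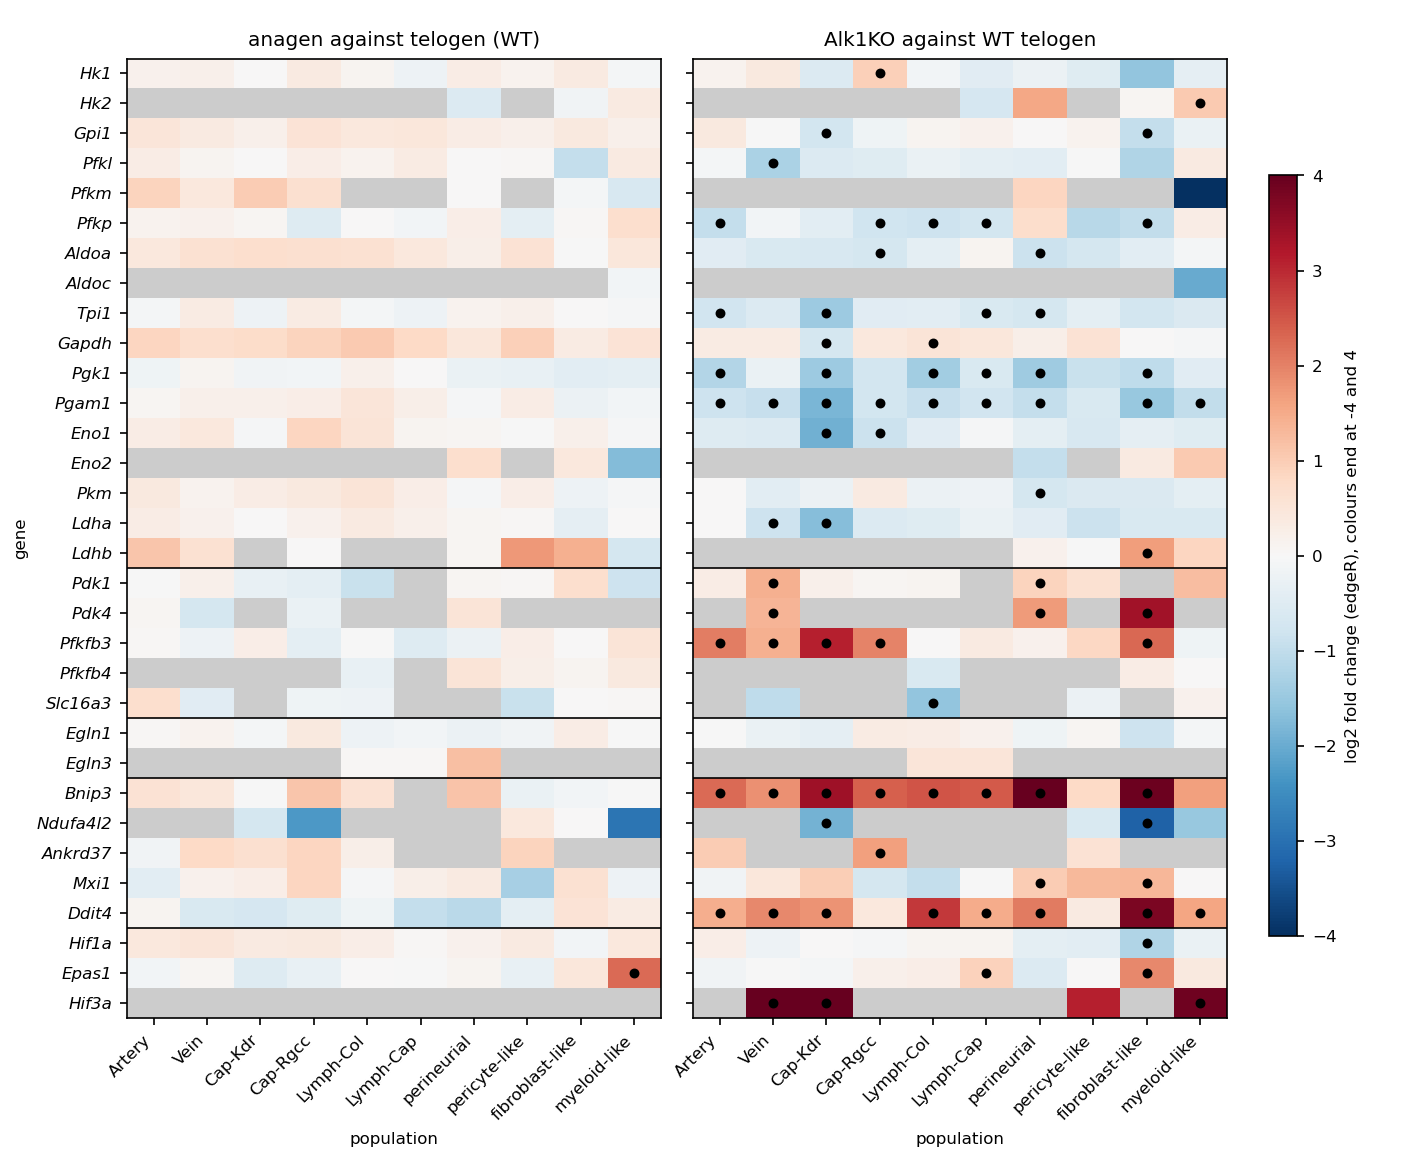
Log2 fold change of each gene (y axis, grouped by role) in each population (x axis) for anagen against telogen in WT (left) and Alk1KO against WT telogen (right), with a dot where a gene was called and grey where it was not tested. In the left panel the only dot is Epas1 in myeloid-like cells, and in the right panel Bnip3 and Ddit4 are red and Pgam1 and Pgk1 blue across most populations.

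The Alk1KO comparison set 2 Alk1KO libraries against the same 2 WT telogen libraries used above, so both comparisons share those mice. Genotype cannot be told apart from age, days after tamoxifen, strain and the Krt14-H2BGFP transgene, which all differed between the groups. Nor can it be told apart from the experiment, since the study describes the Alk1KO data as an earlier dataset of its authors. Depth differed as well, at 10615358 and 11239445 UMIs in the Alk1KO libraries and 32626434 and 43317677 in the WT telogen libraries. Acvrl1 itself was read from its 3′ end, and the deleted exons are not given in the sources used here, so its UMIs do not check the deletion. It was at 314 and 282 CPM in the telogen libraries and 308 and 254 CPM in the Alk1KO libraries in Artery, 187 and 152 CPM in the telogen libraries and 96.6 and 94.1 CPM in the Alk1KO libraries in Cap-Kdr, and 17.0 and 11.4 CPM in the telogen libraries and 12.7 and 0 CPM in the Alk1KO libraries in perineurial cells. Its level thus overlapped between the groups in Artery and was lower in both Alk1KO libraries in Cap-Kdr.

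Across the 10 populations, 38 of 235 tests of these genes were higher and 39 lower in Alk1KO. Of 26 genes called anywhere, 12 were only higher, 13 only lower and 1, Gapdh, went both ways. Among all genes tested, 2.8% (pericyte-like) to 17.3% (fibroblast-like) were higher and 3.4% to 20.9% lower in the same 2 populations, the extremes of the 10. In the 6 EC subpopulations 23 tests were higher and 27 lower of 131, while 9.65% of all EC tests were higher and 11.2% lower. Of the 27 lower calls 25 were glycolytic enzymes, while 2 of 73 enzyme tests were higher. The hypoxia targets Bnip3 and Ddit4 and the activator Pfkfb3 were higher in most vessels. Of the 77 calls over all populations, 33 held under every alternative that gave a value, and DESeq2 called 32 in the EC subpopulations where edgeR called 50. In each EC subpopulation a larger share of these genes than of all genes tested was called: Artery 3 higher and 4 lower of 21 (33.3%, against 18.5%), Vein 6 and 3 of 23 (39.1%, against 19.6%), Cap-Kdr 4 and 8 of 22 (54.5%, against 34.9%), Cap-Rgcc 4 and 4 of 21 (38.1%, against 21.3%), Lymph-Col 3 and 4 of 23 (30.4%, against 17.6%) and Lymph-Cap 3 and 4 of 21 (33.3%, against 15.6%). The median over the genes tested lay between -0.48 (Cap-Kdr) and 0.01 (Artery), against -0.01 to 0.02 over all genes, and over the enzymes alone between -0.72 (Cap-Kdr) and -0.26 (Artery).

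**Figure D4:**
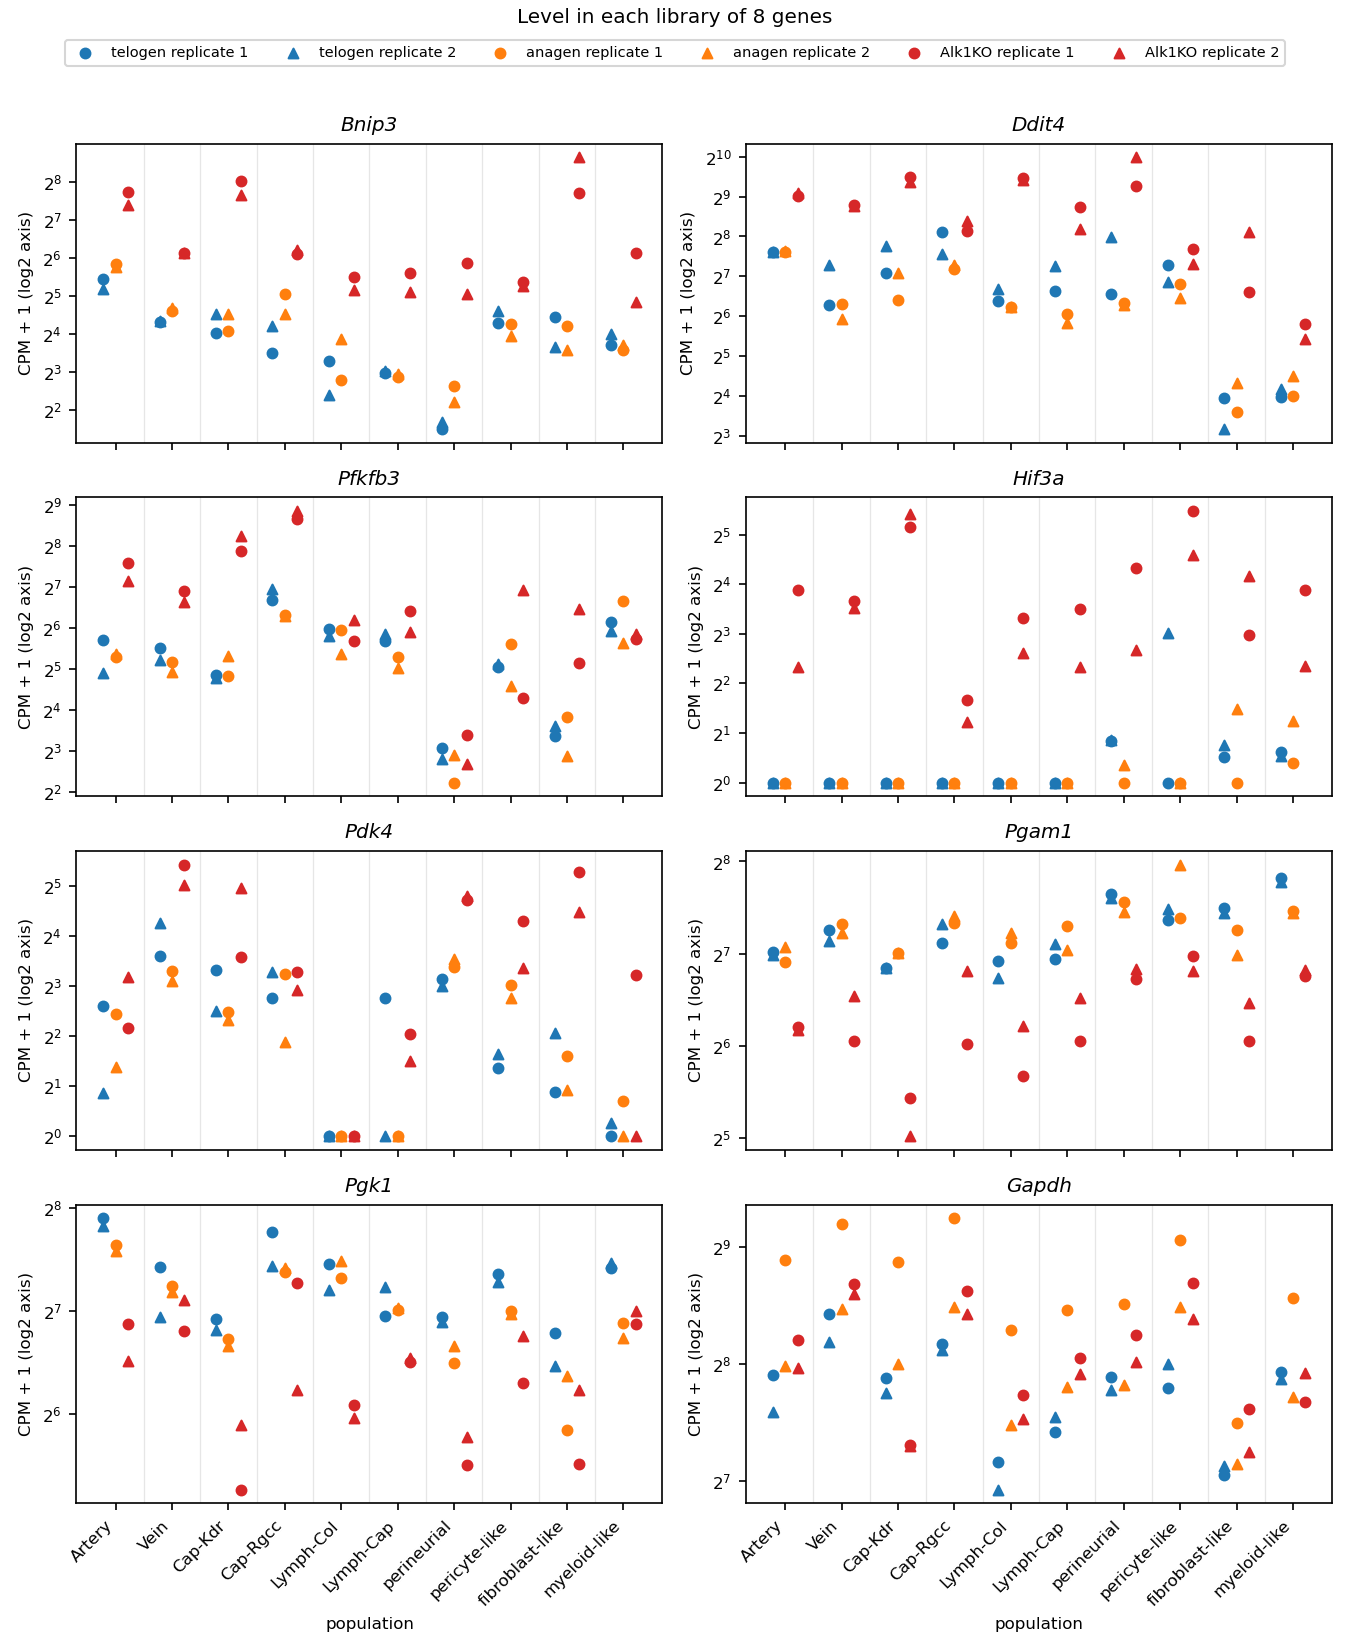
Level of 8 genes (one panel each) in every library (y axis, CPM + 1 on a log2 axis) across 10 populations (x axis), with circles and triangles for replicates 1 and 2 and colors for telogen, anagen and Alk1KO. Both Alk1KO points lie above the 4 WT points for Bnip3 in all 10 populations, and anagen replicate 1 stands high for Gapdh.

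Bnip3 was called in 8 populations, always higher. In Artery it was at 42.3 and 35.5 CPM in the telogen libraries and 209.9 and 166 CPM in the Alk1KO libraries, and rose by 2.26 ± 0.19 (adjusted p = 6.72e-06) by edgeR. In Cap-Kdr it went from 15.4 and 22 CPM to 257 and 199 CPM, a rise of 3.40 ± 0.26 (adjusted p = 1.47e-06) by edgeR. The groups did not overlap in any EC subpopulation, and the rise was 1.83 ± 0.25 in Vein, 2.45 ± 0.39 in Lymph-Cap, 2.50 ± 0.35 in Lymph-Col and 2.38 ± 0.35 in Cap-Rgcc. Its 8 calls included 7 that held under every alternative. Ddit4 was called in 5 of the 6 EC subpopulations. In Lymph-Col it was at 82.2 and 102 CPM in the telogen libraries and 703 and 679 CPM in the Alk1KO libraries, and rose by 2.84 ± 0.16 (adjusted p = 9.96e-06) by edgeR. It rose by 1.45 ± 0.15 in Artery, 1.92 ± 0.26 in Vein, 1.79 ± 0.22 in Cap-Kdr and 1.48 ± 0.23 in Lymph-Cap, and its log2 fold change in Cap-Rgcc, where it was at 274 and 186 CPM in the telogen libraries and 279 and 332 CPM in the Alk1KO libraries, was 0.43 ± 0.22 without a call.

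Pfkfb3 rose in the 4 blood EC subpopulations and in neither lymphatic one. In Cap-Kdr it was at 28.2 and 26.6 CPM in the telogen libraries and 235 and 306 CPM in the Alk1KO libraries, a rise of 3.11 ± 0.24 (adjusted p = 1.24e-06) by edgeR. The rise was 2.05 ± 0.24 in Artery, 1.43 ± 0.22 in Vein and 1.99 ± 0.22 in Cap-Rgcc, while the values in Lymph-Col (0.02 ± 0.21) and Lymph-Cap (0.35 ± 0.23) were not called. Hif3a had 0 UMIs in blood ECs of WT telogen and 98 in those of Alk1KO. Its pooled level of 13.0 CPM was 35.5 times a floor of 3 counts over the telogen group. In Cap-Rgcc it had 3 UMIs in Alk1KO, too few for such a ratio. The ratio to the floor was 20.9 in Cap-Kdr, 8.80 in Vein, 7.69 in Artery, 8.82 in Lymph-Col and 3.59 in Lymph-Cap. These ratios cover neither counting error in Alk1KO nor the spread between mice. Hif3a was called in Cap-Kdr (adjusted p = 6.48e-05 by edgeR) and Vein (0.00204), and was not tested in Artery, Lymph-Col or Lymph-Cap. Pdk1 (1.41 ± 0.37) and Pdk4 (1.35 ± 0.35) rose in Vein. Pdk4 there was at 11.1 and 18.2 CPM in the telogen libraries and 42.0 and 31.4 CPM in the Alk1KO libraries, without overlap. Of the EC calls listed so far, Pdk4 in Vein was lost without telogen replicate 1 or Alk1KO replicate 1, and Pdk1 without telogen replicate 2, while Hif3a in Vein was not tested without Alk1KO replicate 1 and not called by DESeq2.

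Pgam1 fell in all 6 EC subpopulations and Pgk1 in 4. In Cap-Kdr, Pgam1 was at 114 and 113 CPM in the telogen libraries and 42.1 and 31.4 CPM in the Alk1KO libraries, a log2 fold change of -1.82 ± 0.25 (adjusted p = 0.000117) by edgeR. It fell by 0.83 ± 0.16 in Artery, 0.92 ± 0.20 in Vein, 0.77 ± 0.19 in Lymph-Cap, 0.93 ± 0.19 in Lymph-Col and 0.75 ± 0.24 in Cap-Rgcc. Both Alk1KO libraries lay below both telogen libraries for Pgam1 in every population. Pgk1 in Artery was at 237 and 225 CPM in the telogen libraries and 116 and 90.4 CPM in the Alk1KO libraries, a log2 fold change of -1.17 ± 0.17 (adjusted p = 0.000344) by edgeR. It was also lower in Cap-Kdr (-1.46 ± 0.25), Lymph-Col (-1.38 ± 0.17) and Lymph-Cap (-0.62 ± 0.16), and was not called in Vein (-0.27 ± 0.21) or Cap-Rgcc (-0.72 ± 0.26). Cap-Kdr lost the most enzymes: Ldha was at 383 and 309 CPM in the telogen libraries and 117 and 127 CPM in the Alk1KO libraries, a log2 fold change of -1.69 ± 0.20 (adjusted p = 4.26e-05) by edgeR, with Eno1 (-1.93 ± 0.25), Tpi1 (-1.47 ± 0.29), Gapdh (-0.71 ± 0.18) and Gpi1 (-0.72 ± 0.19) lower too, and Ndufa4l2 (-1.88 ± 0.55) besides. Elsewhere Pfkp was lower in Lymph-Col (-0.83 ± 0.17), Lymph-Cap (-0.74 ± 0.21), Cap-Rgcc (-0.79 ± 0.22) and Artery (-0.96 ± 0.21), and Tpi1 in Artery (-0.76 ± 0.17) and Lymph-Cap (-0.62 ± 0.16). Vein lost Pfkl (-1.27 ± 0.24) and Ldha (-0.84 ± 0.19), Cap-Rgcc lost Aldoa (-0.71 ± 0.21) and Eno1 (-0.85 ± 0.31), and Lymph-Col lost Slc16a3 (-1.58 ± 0.42).

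Of the other EC calls, 4 were higher. Hk1 (0.94 ± 0.23) and Ankrd37 (1.65 ± 0.58) rose in Cap-Rgcc, Gapdh (0.53 ± 0.16) in Lymph-Col and Epas1 (0.93 ± 0.17) in Lymph-Cap, where Epas1 was at 109.6 and 116 CPM in the telogen libraries and 197 and 248 CPM in the Alk1KO libraries. Hif1a was called in no EC subpopulation, with log2 fold changes of -0.21 to 0.28, nor was Pkm, at -0.42 to 0.34, or Egln3, at 0.47 to 0.48 in the lymphatic subpopulations where it was tested. Epas1 outside Lymph-Cap spanned -0.15 to 0.27. The calls depended on single libraries to different degrees. Of 7 calls in Artery there remained 6 without telogen replicate 1, 7 without telogen replicate 2, 7 without Alk1KO replicate 1 and 5 without Alk1KO replicate 2 (Pfkp and Tpi1 being lost), where a call counted as remaining only if the gene was still tested. Of 9 in Vein there remained 7 without telogen replicate 1, 8 without telogen replicate 2, 7 without Alk1KO replicate 1 and 9 without Alk1KO replicate 2. Of 12 in Cap-Kdr there remained 10 without telogen replicate 1, 11 without telogen replicate 2, 11 without Alk1KO replicate 1 and 11 without Alk1KO replicate 2, where Ndufa4l2 was not tested without telogen replicate 1 and lost the other 3 times. Cap-Rgcc was the least stable, since of 8 calls there remained 3 without telogen replicate 1, 4 without telogen replicate 2, 5 without Alk1KO replicate 1 and 2 without Alk1KO replicate 2, and Pgam1 and Ankrd37 were lost each time while Bnip3 and Pfkfb3 stayed. Of 7 in Lymph-Col there remained 3 without telogen replicate 1, 5 without telogen replicate 2, 6 without Alk1KO replicate 1 and 6 without Alk1KO replicate 2, and of 7 in Lymph-Cap 5 without telogen replicate 1, 3 without telogen replicate 2, 7 without Alk1KO replicate 1 and 7 without Alk1KO replicate 2, where Tpi1, Pfkp, Pgam1 and Pgk1 were those lost without telogen replicate 2.

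In perineurial cells 5 genes were higher and 5 lower of 25 (40%, against 22% of all genes), with a median of -0.18 against -0.06 over all genes tested. Bnip3 was at 1.83 and 2.21 CPM in the telogen libraries and 57.1 and 32.3 CPM in the Alk1KO libraries, a rise of 4.40 ± 0.55 (adjusted p = 9.91e-05) by edgeR. Ddit4 was at 93.3 and 252 CPM in the telogen libraries and 618 and 1011 CPM in the Alk1KO libraries, a rise of 2.09 ± 0.36 (adjusted p = 0.00112) by edgeR. Neither gene overlapped between the groups. Both kinases of pyruvate dehydrogenase rose, Pdk1 by 0.90 ± 0.23 and Pdk4 by 1.70 ± 0.52, as did Mxi1 by 1.03 ± 0.31. Pgk1 (-1.41 ± 0.27), Pgam1 (-0.96 ± 0.21), Aldoa (-0.86 ± 0.21), Pkm (-0.71 ± 0.21) and Tpi1 (-0.71 ± 0.22) fell. Gapdh (0.22 ± 0.21), Ldha (-0.47 ± 0.21), Hif1a (-0.40 ± 0.39) and Epas1 (-0.54 ± 0.28) were not called. The Alk1KO libraries held only 56 to 80 perineurial cells each, against 544 to 855 in telogen. Of the 10 calls there remained 3 without telogen replicate 1, 3 without telogen replicate 2, 8 without Alk1KO replicate 1 and 8 without Alk1KO replicate 2: Bnip3 was lost without telogen replicate 1, and Pdk4 was lost without either Alk1KO library and not tested without either telogen library. The calls of Pdk1, Mxi1, Aldoa, Pkm and Tpi1 were each lost without telogen replicate 1 and again without telogen replicate 2. Pdk1 was also lost without Alk1KO replicate 1, Mxi1 without Alk1KO replicate 2 and Pgam1 without telogen replicate 2. With the stricter cell filter, 6 genes were called. The summed level of 8 fibroblast markers in these cells was 1731 to 1797 CPM in telogen and 231 to 365 CPM in Alk1KO, and its part in these results was not tested.

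Pericyte-like cells had 0 of 25 genes called by edgeR (8 at an unadjusted p under 0.05, 0 by DESeq2, and 6.26% of all genes). Bnip3 there was at 18.7 and 23.3 CPM in the telogen libraries and 40.4 and 37.1 CPM in the Alk1KO libraries, and its log2 fold change was 0.80 ± 0.41 (adjusted p = 0.246) by edgeR. The others were Ddit4 (0.35 ± 0.30), Pgk1 (-0.90 ± 0.28), Ldha (-0.87 ± 0.28), Gapdh (0.57 ± 0.27), Pkm (-0.58 ± 0.25), Ndufa4l2 (-0.62 ± 0.28), Hif1a (-0.41 ± 0.26), Epas1 (0.02 ± 0.25) and Slc16a3 (-0.22 ± 0.82). Without Alk1KO replicate 1 there were 6 calls, and without Alk1KO replicate 2 there were 4.

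Fibroblast-like cells had the most calls of any single population, 7 higher and 6 lower of 25 (52%, against 38.2% of all genes). Their median was -0.43 against -0.05 over all genes tested. Bnip3 (3.91 ± 0.39 (adjusted p = 0.000371) by edgeR), Ddit4 (3.76 ± 0.48), Pdk4 (3.36 ± 0.63), Pfkfb3 (2.29 ± 0.42), Epas1 (1.92 ± 0.34), Ldhb (1.68 ± 0.42) and Mxi1 (1.32 ± 0.36) rose. Ndufa4l2 (-3.22 ± 0.68), Pgam1 (-1.52 ± 0.24), Hif1a (-1.2 ± 0.30), Gpi1 (-0.96 ± 0.25), Pgk1 (-1.01 ± 0.29) and Pfkp (-0.99 ± 0.32) fell. The defining markers of the population moved as well, since 8 fibroblast markers summed to 27205 to 35052 CPM in telogen and 4450 to 5162 CPM in Alk1KO with none at 0, and their part in the result was not tested. Of 13 calls there remained 6 without telogen replicate 1, 9 without telogen replicate 2, 13 without Alk1KO replicate 1 and 8 without Alk1KO replicate 2, and DESeq2 called 7. Gapdh (0.01 ± 0.23), Ldha (-0.61 ± 0.22) and Pkm (-0.57 ± 0.22) were not called. In myeloid-like cells, where 4 of 29 genes were called (13.8%, against 8.27% of all genes), Ddit4 (1.59 ± 0.23 (adjusted p = 0.0216) by edgeR), Hif3a (adjusted p = 0.034) and Hk2 (1.04 ± 0.22) were higher and Pgam1 (-0.97 ± 0.17) lower. All 4 calls were lost without either telogen library, 3 remained without Alk1KO replicate 1 and 2 without Alk1KO replicate 2. Bnip3 in these cells was at 12 and 15.1 CPM in the telogen libraries and 68.9 and 27.6 CPM in the Alk1KO libraries (log2 fold change 1.66 ± 0.39 (adjusted p = 0.0548) by edgeR), and Gapdh (-0.06 ± 0.19), Ldha (-0.60 ± 0.22), Pkm (-0.38 ± 0.19), Pgk1 (-0.46 ± 0.17), Hif1a (-0.27 ± 0.24), Epas1 (0.39 ± 0.80), Slc16a3 (0.17 ± 0.23) and Ndufa4l2 (-1.52 ± 1.41) were not called.

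Genes around the pathway were read from lists of their own. TCA cycle enzymes were called only lower in Alk1KO: 29 of 114 tests in the EC subpopulations (25.4%, against 11.2% of all EC tests called lower), 10 of 19 in perineurial cells (52.6%, against 11.6%) and 4 of 19 in fibroblast-like cells (21.1%, close to the 20.9% of all genes), with Idh2, Mdh2 and Suclg1 each lower in 8 of 10 populations. Other glycolysis enzymes and transporters were 1 higher and 9 lower of 46 in the EC subpopulations (19.6% lower), Pgm2, a phosphoglucomutase, being lower in 6 populations. The glucose transporter Slc2a1 was higher in Artery (0.90) and fibroblast-like cells (1.24). Other hypoxia-response genes were mixed, 20 higher and 17 lower of 121 (16.5% and 14%, against 9.65% and 11.2% of all EC tests). Pgf, a VEGF family growth factor, rose in Artery (3.11) and Cap-Rgcc (4.24) and fell in Lymph-Cap (-2.44), while Fam162a was lower in 9 of 10 populations. Fasting- and glucocorticoid-responsive genes, a list chosen because Ddit4, Pdk4 and others of the 32 genes also answer to those signals, were 52 higher and 8 lower of 95 (54.7% higher), and in perineurial cells 13 higher and 1 lower of 18 (72.2% higher, against 10.3% of all genes). The list was also chosen with earlier results of these data known. The study had itself listed Glul, Txnip, Trp53inp1, Pnpla2 and Tsc22d3 among the genes higher in Alk1KO perineurial cells. The shares of this list called higher, above all in perineurial cells, were thus in part given in advance. Other populations had such shares too. They were 77.8% in fibroblast-like cells (17.3% of all genes), 31.25% in myeloid-like cells (3.4%) and 29.4% in pericyte-like cells (2.8%). Fkbp5 and Tsc22d3, induced by glucocorticoids, were at 3.70 and 2.22 in Artery, and Pnpla2, the fat-mobilising lipase, at 2.98 in perineurial cells. Dissociation and stress-response genes were 21 higher and 16 lower of 96 (21.9% and 16.7%), with 0 higher and 7 lower of 16 in Cap-Kdr and 8 higher and 0 lower of 16 in Cap-Rgcc. The part of these lists in the results above was not tested.

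Whether the Alk1KO effect differed between populations was tested as an interaction with the library as a block. For perineurial cells against blood ECs, 3 of 31 genes were called (9.68%, against 6.99% of all genes), all with a higher log2 fold change in perineurial cells. Bnip3 rose more there by 1.99 ± 0.50 (adjusted p = 0.00622), Pfkp differed by 1.26 ± 0.36 (adjusted p = 0.0176) and Ddit4 by 0.80 ± 0.24 (adjusted p = 0.0258), all by edgeR. None of the 3 was called in all of the fits that left out 1 library, which kept 0 (telogen replicate 1), 1 (telogen replicate 2), 1 (Alk1KO replicate 1) and 1 (Alk1KO replicate 2) of them. For lymphatic against blood ECs, 7 of 30 genes were called (23.3%, against 20.6% of all genes). Pfkfb3 changed less in lymphatic ECs by -1.95 ± 0.17 (adjusted p = 1.21e-07) and Epas1 more by 1.3 ± 0.16 (adjusted p = 6.84e-06), both by edgeR. The pooled lymphatic class changed its make-up, since Lymph-Cap gave 31.1% and 27.4% of its UMIs in telogen mice but 60.8% and 63.4% in Alk1KO mice. Epas1 had the higher WT level in Lymph-Cap of the lymphatic subpopulations, and its difference of 1.3 between the pooled classes was larger than the gap between the changes of any lymphatic and any blood EC subpopulation. The part of this shift in the 7 calls was not tested. Ddit4 (0.76 ± 0.16), Eno1 (0.60 ± 0.18) and Aldoa (0.42 ± 0.15) had the higher fold change in lymphatic ECs, and Hk1 (-0.81 ± 0.19) and Mxi1 (-0.92 ± 0.27) the higher one in blood ECs. Pfkfb3 and Epas1 stayed called without any one library, and of the 7 there remained 3 without telogen replicate 1, 4 without telogen replicate 2, 4 without Alk1KO replicate 1 and 6 without Alk1KO replicate 2. Differences in Bnip3 (0.07 ± 0.28), Hif1a (0.15 ± 0.18) and Pgk1 (-0.14 ± 0.16) between lymphatic and blood ECs were not called.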

How the data were processed

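Single tdTomato+ cells from mouse back skin were profiled in 6 libraries (2 each of WT telogen, WT anagen and Alk1KO) with 10x 3′ v3 chemistry. The authors deposited UMI counts per gene and cell as filtered matrices, one per library. The submitters' processing notes name Cell Ranger 6.0.1, Seurat 4.0 and the mm10 build. Depth was 10615358 to 43317677 UMIs per library. Here cells with 200 to 5000 genes and under 10% mitochondrial UMIs were kept, 1713 to 5106 per library with a median of 4371 to 6935 UMIs. They were clustered with scanpy 1.11.5 (3000 variable genes without the 32 genes, 30 components, 20 neighbors, Harmony over libraries, Leiden resolution 0.6) and clusters were named from at least 3 marker genes. Libraries shared 2 to 13 barcodes per pair, and no cell was removed for them. Scrublet's own threshold marked 58 cells in telogen replicate 2 and under 1% of cells in each other library, where the top 5% of scores stood in, and likely doublets were removed only as an alternative.

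Counts were summed per library and population and tested with edgeR 4.0.16 (filterByExpr, TMM, quasi-likelihood F test, Benjamini-Hochberg adjustment over all genes tested, call at adjusted p under 0.05 and fold over 1.3), and with DESeq2 1.42.0 as an alternative. Comparisons of populations and interactions held the library as a block. In simulated counts with known changes, the test recovered 35% of 2-fold and 85% of 4-fold changes for Alk1KO in perineurial cells (9847 genes), and 85% and 99% for stage in Artery (9914 genes). Changes were planted only in genes above a set mean level, so these rates do not cover those of the 32 genes at low levels. Further alternatives were no filter on low counts, a stricter cell filter (at least 500 genes, under 5% mitochondrial UMIs), likely doublets removed, Leiden resolution 1.2, the replicate block, all 6 libraries in one fit, and each library left out. Every called gene of the 32 was named, up to 12 per comparison by smallest adjusted p, 12 genes were given for every population, and from each of 5 other lists up to 4 called genes were eligible. The 32 genes and the lists were chosen with earlier results of these data known. Gene positions are from GENCODE M21 (GRCm38) and promoter sequences from RefSeq (GRCm38.p6). No column of per-sample values was left unmapped. Where a promoter window overlapped an annotated exon of its gene, only the bases before it are printed. Intervals and floors cover counting error only.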

Additional observations from a re-analysis of the deposited data

Results flagged for a closer look

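The change between WT telogen and Alk1KO differed between populations for 10 results, each by the interaction term of edgeR's quasi-likelihood fit. For perineurial cells these made up 9.68% of the genes tested, against 6.99% of all genes. For lymphatic ECs they made up 23.3%, against 20.6% of all genes, so both shares lay near those of all genes. In perineurial cells against blood ECs the log2 fold change was larger by 1.99 for Bnip3, by 1.26 for Pfkp and by 0.80 for Ddit4. Pfkp itself had opposite signs, at 0.72 in perineurial cells and -0.96 in Artery, where only the second was called. None of the 3 held in every fit that left out a library. Without telogen replicate 1 the differences were 1.62 (adjusted p = 0.232) for Bnip3 and -0.04 (adjusted p = 1) for Ddit4 by edgeR, and the call of Pfkp was lost there too.

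In lymphatic against blood ECs the differences were -1.95 for Pfkfb3, 1.3 for Epas1, 0.76 for Ddit4, -0.81 for Hk1, -0.92 for Mxi1, 0.60 for Eno1 and 0.42 for Aldoa. Pfkfb3, which makes the activator of phosphofructokinase, thus rose more in blood than in lymphatic ECs. Epas1, the HIF2α subunit, was called higher in Lymph-Cap alone of the EC subpopulations, at 0.93, and ranged from -0.15 to 0.22 in the blood EC subpopulations. Lymph-Cap gave 31.1% and 27.4% of the lymphatic UMIs in telogen mice but 60.8% and 63.4% in Alk1KO mice, and the part of this shift in the 7 differences was not tested. Both genes stayed called without any one library, while the fits without 1 library kept 3 to 6 of the 7. Groups of 2 libraries are too small to look for single outlying samples.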

How the results depend on the processing

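Of 198 values called in all, 129 stayed called under every alternative that gave a value. The following counts of calls moved by over 1.5 times, and the cause was not tested. Counts in this section stand without the share of all genes called in the same fit. They therefore do not show whether these genes moved more than others. Without the filter on low counts, the stage comparison gave 15 calls in the EC subpopulations, 1 each in perineurial, pericyte-like and fibroblast-like cells and 2 in myeloid-like cells, its interaction in perineurial cells 1, and the Alk1KO comparison 5 in pericyte-like and 8 in myeloid-like cells. DESeq2 gave 5 for stage in the EC subpopulations and 1 in pericyte-like cells, and for Alk1KO 32 in the EC subpopulations, 7 in fibroblast-like cells, and 1 and 3 for the perineurial and lymphatic interactions. The stricter cell filter gave 0 for stage in myeloid-like cells, 6 for Alk1KO in perineurial cells, 5 for pericyte-like cells against blood ECs and 1 for the Alk1KO interaction in perineurial cells. Removing likely doublets gave 0 for stage in myeloid-like cells and 1 for Alk1KO in pericyte-like cells, and all 6 libraries in one fit gave 0 for stage in myeloid-like cells.

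With the replicate block, stage gave 5 calls in the EC subpopulations, 1 in perineurial and 2 in pericyte-like cells, where none stood without it, and no other count moved by over 1.5 times. The labels tie the replicate numbers to no shared mouse, litter or day, and the deviations of same-numbered libraries correlated at -0.158 to 0.160 over 20 comparisons, 17 of them within 0.1 of 0. A crossed pairing, chosen after seeing the data, left 1 call for stage in myeloid-like cells and 0 for Alk1KO in pericyte-like cells.

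Leaving out 1 library at a time gave 1 to 9 calls for stage in the EC subpopulations, 0 to 1 in perineurial, 0 to 4 in pericyte-like, 0 to 1 in fibroblast-like and 0 to 4 in myeloid-like cells. For Alk1KO it gave 3 to 9 in perineurial, 0 to 6 in pericyte-like, 6 to 14 in fibroblast-like and 0 to 4 in myeloid-like cells. Pericyte-like cells against blood ECs gave 6 to 9, the stage interaction in perineurial cells 0 to 2, and the Alk1KO interactions 0 to 2 (perineurial) and 3 to 6 (lymphatic). Only Ddit4 in the Alk1KO interaction of perineurial cells changed sign, to -0.041 without telogen replicate 1. Alk1KO libraries held 31 to 80 cells each in the perineurial, pericyte-like and fibroblast-like populations, which limits the precision there.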

Other observations

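Small immune and glial populations, each with fewer than 10 cells in at least 1 of the 6 libraries, were not compared and are given here as ranges over the 4 WT libraries. Slc16a3, the lactate exporter, was at 820.4 to 2039 CPM in neutrophil-like cells (3 to 59 cells per library), above its level in each of the 10 populations compared. Ldha was at 682 to 1122 CPM in mast-like cells (11 to 154 cells). Egln3 was at 18.2 to 107 CPM in T/NK-like cells (6 to 152 cells). Ldhb was at 235 to 759 CPM in Schwann-like cells (8 to 46 cells).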
